A study of Arabidopsis thaliana with 12 samples.

Results

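The genes described here are 5 Arabidopsis thaliana genes of fatty acid synthesis and lipid handling, each measured by a probe whose annotation names that gene alone. They are AT1G24360, a ketoacyl-ACP reductase, AT2G04540, a ketoacyl-ACP synthase, AT5G16230, an acyl-ACP desaturase, FATB (AT1G08510), an acyl-ACP thioesterase, and AT4G24160, which resembles the animal lipid droplet protein CGI-58. They were chosen by locus identifier, with earlier results of these data known, out of 690 probes that name 1 gene and match a locus. Each gene had a value above 0 in all 12 samples, so all 5 passed the filter on low values. RNA abundance was measured on arrays of 3439 probes in total RNA of wild-type (WT) plants of the ecotype Wassilevskija. In 6 samples, called sucrose medium below, plants had spent 30 min in MS, a plant salt medium, with 60 mM sucrose. In the other 6 samples plants had been treated with water, for a time that the labels do not give. Salts and sucrose were given together, and no tissue is stated. None of the tissue marker genes looked up (0 of 17, for mesophyll, root, seed and epidermis) lay on a probe that names 1 gene, so the tissue could not be checked.

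Plants build most fatty acids in the plastid, on acyl carrier protein (ACP). A condensing enzyme (ketoacyl-ACP synthase) adds carbon to the chain, and a reductase, a dehydratase and a further reductase prepare it for the next round. Acyl-ACP desaturases then place the first double bond, and thioesterases free the finished chain for export, FATB mainly the saturated ones. Not all 5 genes act in the plastid: AT2G04540 encodes the condensing enzyme of the separate mitochondrial pathway, which feeds lipoate synthesis, and the CGI-58 homologue belongs to neutral lipid turnover outside the plastid, where its loss leads to lipid droplets in Arabidopsis leaves.

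Relative to the other probes of the same arrays, 4 of the 5 genes were lower in sucrose medium and 0 were higher. With each set of 2 alike replicates averaged, or as a random block, 3 were lower, since AT4G24160 was lost (limma, adjusted p = 0.114 and 0.0507). Of all 2915 probes tested, 698 were lower with averaged sets and 795 with the random block. FATB had the smallest adjusted p of the 5, with a 2.59-fold decrease, followed by the desaturase AT5G16230 at 1.60-fold and the reductase AT1G24360 at 1.37-fold. AT4G24160 had a mean decrease of 3.80-fold with samples that spread widely, and of 1.74-fold without sucrose replicates 1 and 2. The mitochondrial synthase AT2G04540 did not pass the test. These counts come from quantile normalised log2 intensities, which give every array the same distribution of values, tested with limma and Benjamini-Hochberg adjustment over 2915 probes at a threshold of 0.05. By that rule 32.9% of all probes tested were lower and 31.5% higher, 64.4% in all. The median log2 fold change was -0.68 over the 5 genes and -0.03 over all probes tested. With 5 genes, and that share of the array lower, the count does not set them apart.

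The deposited values need care, because the arrays of the groups differ as a whole. The scale runs from 0 to 100 and its unit is unknown. Array medians lay between 0.422 and 0.459 in sucrose medium and between 0.171 and 0.188 in water. Without scaling, the median log2 fold change over all probes tested was 1.09, and 90.5% of the probes past the threshold were higher, against 48.9% after quantile normalisation. A straight line fitted for each array gave 65.6%. A decrease below is therefore a decrease relative to the other probes, and whether RNA per plant fell was not measured; in such bulk RNA fewer cells of a type and less RNA per cell cannot be told apart. Within each group replicates 1 and 2, 3 and 4, and 5 and 6 tended to be most alike and are called sets. In water the Spearman correlations overlapped, with a lowest of 0.959 within sets and a highest of 0.961 between sets. Separate plant cultures are not recorded for the samples of a group. The p-values thus reflect sample-to-sample spread that may be technical, and the precision is limited by the number of arrays.

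AT1G24360 reduces the ketoacyl-ACP made in each round of chain building. Its deposited intensity was 1.01 at the lowest, 1.09 at the median and 1.20 at the highest in sucrose medium, against 0.918, 1.02 and 1.11 in water. The groups overlapped, and the means, 1.10 ± 0.06 in sucrose medium and 1.01 ± 0.08 in water (SD, n = 6 each), did not differ beyond the spread of the samples (exact permutation test, two-sided, p = 0.0649). Its place among the probes of its array did shift: 82.6% to 87.7% of all probes were dimmer in sucrose medium, against 89.3% to 90.4% in water. On the quantile normalised log2 scale the samples ran from -0.37 to 0.03, with a median of -0.24, in sucrose medium and from 0.17 to 0.31, with a median of 0.23, in water. The groups did not overlap there, and sucrose replicate 3 lay nearest to water. The log2 fold change was -0.46 ± 0.08 (SE; limma, adjusted p = 0.000202). With each set averaged it was -0.46 with an SE of 0.12 (limma, adjusted p = 0.0206).

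The change of AT1G24360 depended on the scaling in size, in sign and in whether it passed the threshold. It was -1.14 with median centring, which shifts each array by a constant, -0.28 with cyclic loess, 0.12 without scaling (limma, adjusted p = 0.149) and -0.04 with the straight line (limma, adjusted p = 0.708). Set against all probes tested, its log2 fold change exceeded that of 28.6% of them after quantile normalisation and of 17.6% with median centring. The share was 35.4% with cyclic loess and 38.8% with the straight line.

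AT2G04540, the mitochondrial condensing enzyme, was higher in every sucrose sample on the deposited scale. Its intensity was 0.208 at the lowest, 0.306 at the median and 0.343 at the highest in sucrose medium, against 0.0943, 0.138 and 0.183 in water. The groups did not overlap, and the means differed 2.14-fold. They were 0.294 ± 0.050 in sucrose medium and 0.137 ± 0.029 in water (SD, n = 6 each). The exact permutation test, two-sided, gave p = 0.00216, the smallest possible for 6 against 6 samples taken as separate. On that scale 64.0% of all probes tested were higher without overlap, so this places AT2G04540 with the bulk of the array.

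After quantile normalisation the samples of AT2G04540 ran from -3.03 to -2.18 in sucrose medium, with a median of -2.37, and from -2.78 to -1.89 in water, with a median of -2.18. The groups overlapped broadly, and 4 of 6 same-numbered pairs were lower in sucrose medium. The log2 fold change was -0.22 ± 0.17 (SE; limma, adjusted p = 0.270), with a 95% interval from -0.59 to 0.15. It exceeded the log2 fold change of 40.3% of all probes tested. The lowest sucrose sample was replicate 5, and the lowest water sample was replicate 6. Sucrose replicates 5 and 6 averaged -2.81, below -2.23 for replicates 1 and 2 and -2.34 for replicates 3 and 4.

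AT5G16230 belongs to the soluble desaturases that act on acyl chains while these are still bound to ACP. Its deposited intensity was 0.121 at the lowest, 0.177 at the median and 0.206 at the highest in sucrose medium, against 0.0932, 0.105 and 0.126 in water. Every same-numbered pair was higher in sucrose medium, although the ranges overlapped, and the means differed 1.57-fold (0.170 ± 0.034 in sucrose medium and 0.108 ± 0.012 in water; SD, n = 6 each; exact permutation test, two-sided, p = 0.00433). That rise was smaller than the shift of the array as a whole. On each array 20.8% to 24.9% of the probes were dimmer than AT5G16230 in sucrose medium, against 31.1% to 38.9% in water.

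On the quantile normalised log2 scale AT5G16230 ran from -3.52 to -3.03 in sucrose medium, with a median of -3.24, and from -2.76 to -2.34 in water, with a median of -2.58. The groups did not overlap, and all 6 pairs were lower in sucrose medium, by 0.41 to 0.84 in size. The log2 fold change was -0.68 ± 0.10 (SE; limma, adjusted p = 8.13e-05). It was -0.63 with median centring, -0.73 with cyclic loess and 0.63 without scaling, where the median of all probes was 1.09. With each set averaged after quantile normalisation it was -0.68 with an SE of 0.14 (limma, adjusted p = 0.0085). The decrease was of like size in the 3 sets, at -0.73 for replicates 1 and 2, -0.62 for 3 and 4 and -0.69 for 5 and 6.

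FATB ends chain building by freeing saturated acyl chains from ACP. In sucrose medium its deposited intensity was 0.166 at the lowest, 0.204 at the median and 0.218 at the highest, against 0.136, 0.181 and 0.342 in water. The sucrose samples lay close together, while water replicates 5 and 6, at 0.342 and 0.328, stood above the other water samples, which lay between 0.136 and 0.183. The means were 0.199 ± 0.020 in sucrose medium and 0.224 ± 0.088 in water (SD, n = 6 each) and did not differ beyond that spread (exact permutation test, two-sided, p = 0.463).

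Among the probes of its array FATB held a narrow place in sucrose medium, with 24.4% to 26.7% of probes dimmer, against 42.3% to 70.1% in water. On the quantile normalised log2 scale it ran from -3.13 to -2.92 in sucrose medium, with a median of -2.98, and from -2.18 to -1.05 in water, with a median of -1.80. The groups were clearly apart: the highest sucrose sample lay 0.74 below the lowest water sample, which was its same-numbered partner. The log2 fold change was -1.37 ± 0.17 (SE; limma, adjusted p = 2.27e-05). It exceeded the log2 fold change of 3.81% of all probes tested, and 12.5% with median centring, where it was -1.35. With each set averaged after quantile normalisation it was -1.37 with an SE of 0.24 (limma, adjusted p = 0.00517).

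Which water samples are used changes the size for FATB but not the call. Replicates 5 and 6 differed by -1.89 between the groups, against -1.04 for replicates 1 and 2 and -1.20 for 3 and 4. Without water replicates 5 and 6 the log2 fold change was -1.09 (limma, adjusted p = 6.59e-06). Without any scaling it was -0.09 (limma, adjusted p = 0.701).

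**Figure D1:**
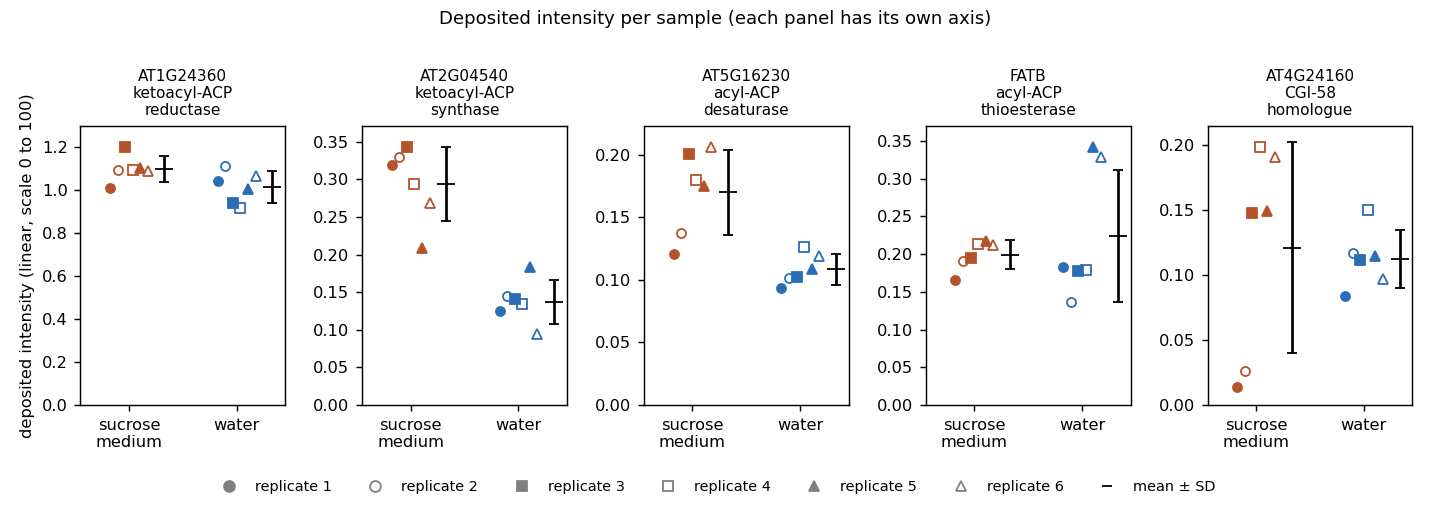
Deposited intensity of each gene (vertical axis, linear and starting at 0, a separate axis per gene) in the 6 sucrose medium samples and the 6 water samples, with mean and SD beside the points. AT2G04540 is higher without overlap in sucrose medium, from 0.208 upwards against at most 0.183 in water, while sucrose replicates 1 and 2 of AT4G24160 lie at 0.0135 and 0.0262.

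AT4G24160, the CGI-58 homologue, had 4 sucrose samples like each other and 2 far below them. Its deposited intensity was 0.0135 and 0.0262 in sucrose replicates 1 and 2 and 0.148, 0.199, 0.149 and 0.191 in replicates 3 to 6. In water it was 0.0835 at the lowest, 0.113 at the median and 0.150 at the highest. The means did not separate, at 0.121 ± 0.081 in sucrose medium and 0.112 ± 0.023 in water (SD, n = 6 each; exact permutation test, two-sided, p = 0.797). The samples of replicates 3 to 6 were each higher than their same-numbered water partner, and those of replicates 1 and 2 lower.

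After quantile normalisation all 6 sucrose samples of AT4G24160 lay below all 6 water samples. The sucrose samples ran from -7.45 to -3.03, with a median of -3.56, and the water samples from -2.92 to -2.06, with a median of -2.48. The log2 fold change was -1.92 ± 0.67 (SE; limma, adjusted p = 0.0236), with a 95% interval from -3.38 to -0.47. Its mean rests on the set of replicates 1 and 2: the difference was -3.99 for replicates 1 and 2, -1.01 for 3 and 4 and -0.77 for 5 and 6. Without sucrose replicates 1 and 2 the log2 fold change was -0.80 (limma, adjusted p = 0.00208), a smaller difference with a smaller error, and it then exceeded that of 16.7% of all probes tested in place of 0.720%.

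The call for AT4G24160 depended on single samples and on how the sets were treated. Without sucrose replicate 2 the log2 fold change was -1.63 (limma, adjusted p = 0.0534), and without replicate 1 it was -1.32 (limma, adjusted p = 0.0199). With each set averaged to 1 value, 3 against 3, or with the set as a random block, it did not pass. Without scaling the log2 fold change was -0.44 (limma, adjusted p = 0.532). In sucrose replicates 1 and 2 only 13.9% and 13.6% of the probes of the array were dimmer, probes listed at 0 included. Values below background cannot be told from the table, so these 2 samples may hold only a bound.

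**Figure D2:**
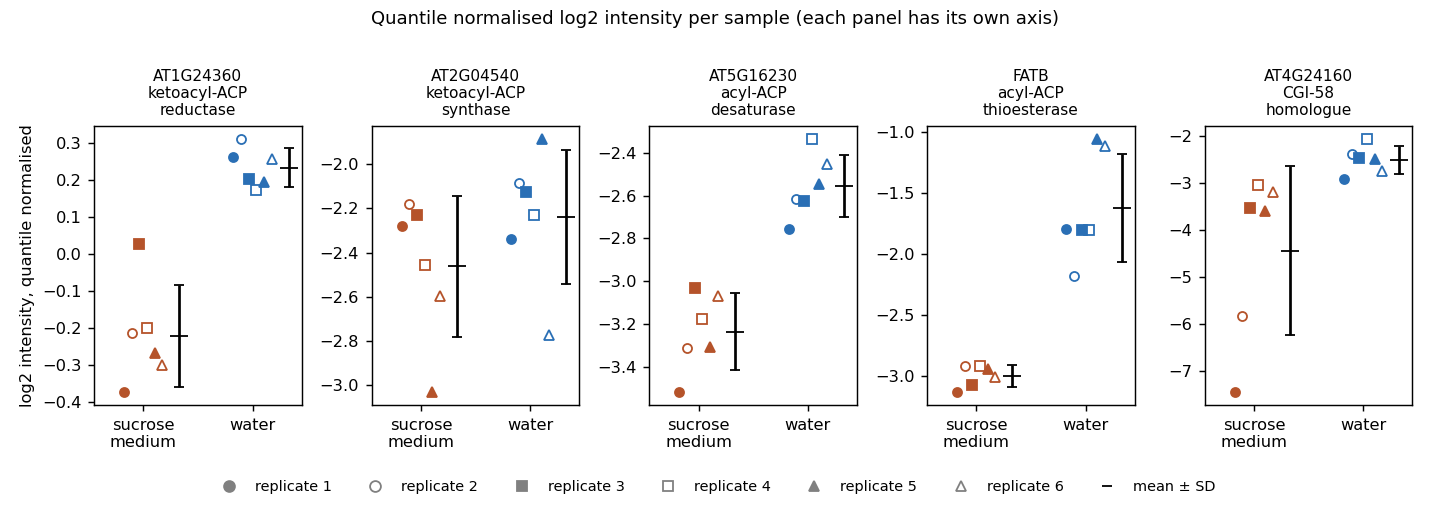
Quantile normalised log2 intensity of each gene (vertical axis, a separate axis per gene) in the 6 sucrose medium samples and the 6 water samples, with mean and SD beside the points. The groups do not overlap for AT1G24360, AT5G16230, FATB and AT4G24160, and overlap for AT2G04540, from -3.03 to -2.18 in sucrose medium against -2.78 to -1.89 in water.

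In all, 4 of the 5 genes were lower without overlap of the groups after quantile normalisation, as were 23.3% of all probes tested (21.0% were higher without overlap). Sucrose medium was higher without overlap for 1 gene on the deposited scale and lower for 0, against 64.0% and 4.43% of all probes tested. With no scaling 2 genes passed as higher, AT2G04540 and AT5G16230, and 0 as lower, beside 73.9% higher and 7.75% lower over all probes. With the straight line 0 genes were lower, but AT1G24360 alone could be tested there, beside 22.6% lower of the 2149 probes tested there. Without scaling AT2G04540 was at 1.11 and AT5G16230 at 0.63, on either side of the median of 1.09. The other 3 genes lay below that median too, so relative to it the direction of AT1G24360, AT5G16230, FATB and AT4G24160 was the same with and without scaling.

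**Figure D3:**
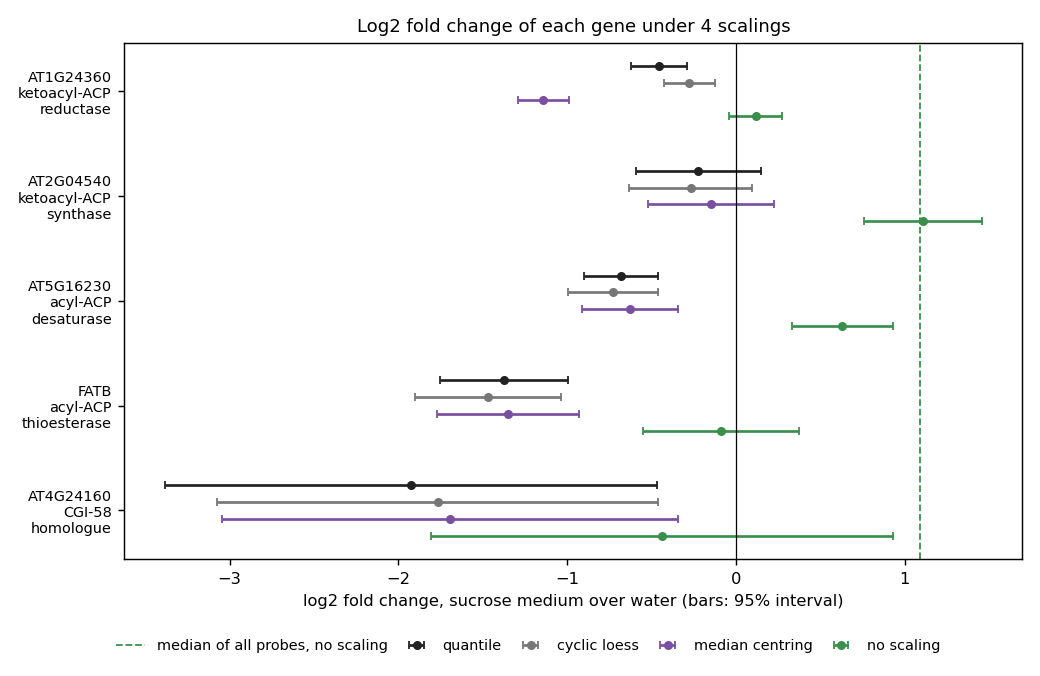
Log2 fold change, sucrose medium over water, of each gene (horizontal axis, points with 95% intervals) after quantile normalisation, cyclic loess, median centring and no scaling. FATB stays between -1.47 and -1.35 under the 3 scalings and is at -0.09 without one, where the dashed line marks the median of all probes at 1.09.

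Because an array's overall brightness cancels within the array, the changes of 2 genes were also set against each other. There are 10 pairs among the 5 genes, each tested by an exact permutation of the samples (two-sided) with p-values adjusted over the 10. The log2 fold change of the desaturase AT5G16230 exceeded that of FATB by 0.69 on the quantile normalised scale (adjusted p = 0.0108) and by 0.72 on the deposited values (adjusted p = 0.0216). That of the mitochondrial synthase AT2G04540 exceeded FATB's by 1.15 and 1.20 on the same scales (adjusted p = 0.0144 and 0.0216). Those 2 differences were of like size on these 2 scales. AT2G04540 minus AT5G16230 was 0.46 and 0.48, which did not pass (adjusted p = 0.0758 and 0.121). With 0.05 added before log2, AT5G16230 minus FATB was 0.58 and AT2G04540 minus FATB was 0.92 (adjusted p = 0.0108 and 0.0144).

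Differences that involve AT1G24360, whose probe lay high on every array, did depend on the scaling. AT1G24360 minus FATB was 0.92 after quantile normalisation (adjusted p = 0.0108) but 0.21 on the deposited values (adjusted p = 0.441). AT1G24360 minus AT5G16230 was 0.23 after quantile normalisation (adjusted p = 0.0541) and -0.51 on the deposited values (adjusted p = 0.0216), so its direction turned. AT1G24360 minus AT2G04540 was -0.23 (adjusted p = 0.257) and -0.99 (adjusted p = 0.0216). For AT4G24160, the quantile normalised differences of 1.47 from AT1G24360 and 1.70 from AT2G04540 passed (adjusted p = 0.0433 each), and on the deposited values neither did (adjusted p = 0.507 and 0.0606). Without sucrose replicate 1 they were 0.90 and 1.06 (adjusted p = 0.0606 and 0.0487), and with 0.05 added before log2 0.59 and 0.83 (adjusted p = 0.0736 and 0.0433). Neither passed when any 1 water replicate was left out. FATB and AT4G24160 differed by 0.55, which did not pass (adjusted p = 0.502).

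Of the 10 pairs, 5 passed after quantile normalisation, and 3 when water replicate 2, 3, 4, 5 or 6 was left out. Pairs of other probes were not tested, so whether such counts are particular to these genes is not known. Paired by replicate number, with an exact sign-flip test over 6 pairs, 0 passed (the smallest p possible is 0.0312, and the smallest adjusted p was 0.0781). At an unadjusted p under 0.05, 4 pairs passed in that test, among them FATB against AT5G16230 and against AT2G04540.

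**Figure D4:**
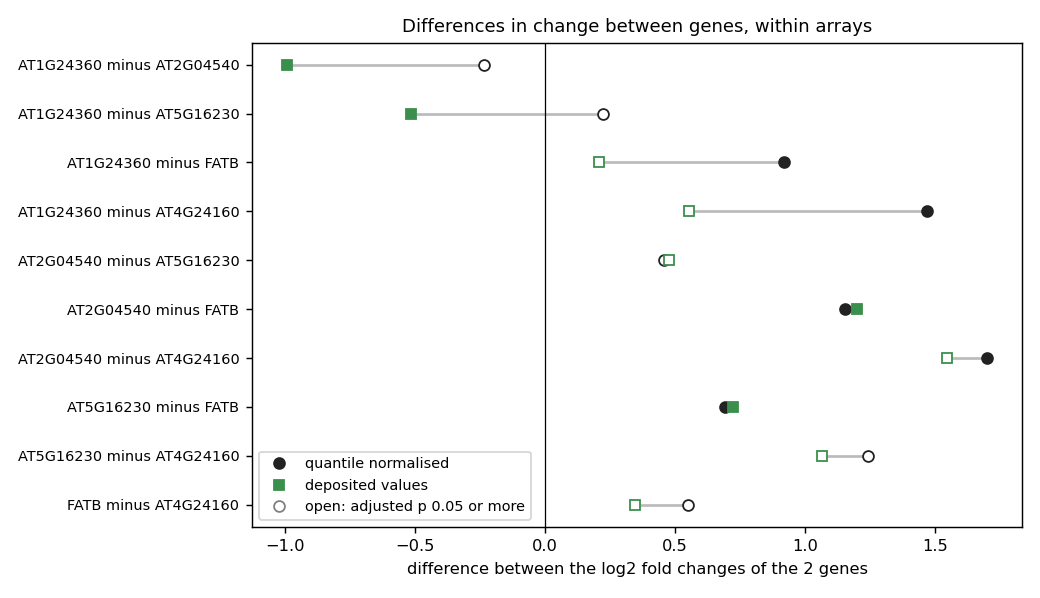
Difference between the log2 fold changes of each pair of genes (horizontal axis), after quantile normalisation (circles) and on the deposited values (squares), filled where the adjusted p is under 0.05. The points for AT2G04540 minus FATB (1.15 and 1.20) and AT5G16230 minus FATB (0.69 and 0.72) nearly coincide, and those for AT1G24360 minus AT5G16230 lie on opposite sides of 0.

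The pathway around these genes was thinly covered by probes that name 1 gene. Of 79 loci listed for acetyl-CoA carboxylase, plastid fatty acid synthase, acyl carrier proteins, plastid pyruvate dehydrogenase, desaturases, thioesterases, plastid lipid assembly, mitochondrial synthesis, storage lipid and its breakdown, and the regulator WRI1, the 5 genes here were the only ones on such a probe. A further 9 loci lay only on probes with several genes. For acetyl-CoA carboxylase, the acyl carrier proteins, plastid pyruvate dehydrogenase, the membrane desaturases and plastid lipid assembly, 0 loci were on either kind of probe.

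Profiles of the 5 genes were also set against 563 other single-gene probes measured above 0 throughout. Likeness was measured as the root mean square difference of profiles centred on their own mean, over the 12 quantile normalised log2 values. The measure is not scaled by the spread of a profile, so a widely spread gene lies far from most others. AT4G24930 was nearest to AT1G24360, at 0.087, followed by PRA1.B6 (AT5G07110) and AT4G29890. AT4G09620 was nearest to AT5G16230, at 0.108, followed by AT4G08280 and AT2G37510. For FATB the nearest were AT4G00170, AT4G25290 and AT2G22890, from 0.220 to 0.269. AT2G04540 was closest to CML41 (AT3G50770), AT2G05120 and AT2G32470, from 0.189 to 0.210. For AT4G24160, whose sucrose samples had an SD of 1.79, AT3G11960 was nearest at 0.705, then AT5G19050 and AT3G16760. None of the 5 genes was among the 3 nearest of another, which says little with only 3 of 563 probes listed for each. Within the 5, AT1G24360 and AT5G16230 were nearest by this measure, at 0.183, and AT2G04540 and AT4G24160 farthest apart, at 1.54.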

How the data were processed

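The authors deposited linear intensities between 0 and 100, with 1 value for each probe in a sample. Their background correction, scaling and spot averaging are not given in the sources used here. Groups came from the sample titles. The 5 genes and the gene lists were chosen with earlier results of these data known.

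Values of 0 were treated as missing. Log2 intensities were quantile normalised, and probes with at least 4 values above 0 per group were tested with limma 3.58.1 in R 4.3.3 (lmFit, eBayes, two-sided, no block, Benjamini-Hochberg). Fold changes are sucrose medium over water. Differences between genes were tested by exact permutation of the samples (924 arrangements). Only the limma fit was tried on simulated data, drawn independently for each sample and without likeness within sets. The normalisation and the permutation tests were not tried in that way. Figures were drawn with matplotlib 3.10.9.

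Probe genes came from the platform annotation, matched to loci of TAIR10.1 by gene identifier: 692 probes name 1 gene, of which 690 matched, 870 name several and 1877 are not listed. The genes named with values are the 5 genes and the 3 nearest profiles of each; loci on probes with several genes are named in the closing section, chosen after their values were seen. No sequence or coordinate is given.

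Same-numbered samples of the groups deviated together (r from 0.280 to 0.450 in 6 pairs, across 2805 probes), so the numbers meet the rule for pairing; the tests in the report are unpaired, and the paired fits are alternatives. Within a group, samples 1 and 2, 3 and 4, and 5 and 6, called sets here, tended to be closest. Spearman correlations within sets were 0.977 to 0.990 in sucrose medium and 0.959 to 0.974 in water. For other samples they were 0.937 to 0.971 and 0.933 to 0.961, so the ranges overlapped in water. Whether the samples of a set are repeat measurements is not stated. Between the groups, deviations of samples with other numbers of the same set had r from 0.162 to 0.282. For samples of other sets r ran from -0.290 to 0.045. The fits with averaged sets or the set as a random block did not pair the sets across the groups.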

Additional observations from a re-analysis of the deposited data

How the results depend on the processing

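The 5 log2 fold changes were recomputed under other scalings, filters, blocks and left-out samples. Without scaling AT1G24360, AT2G04540 and AT5G16230 turned to 0.12, 1.11 and 0.63, FATB was at -0.091 and AT4G24160 at -0.44, neither past the threshold, so 0 genes were lower and 2 higher. With the straight line AT1G24360 was at -0.039, 0 genes were lower, and the other 4 genes kept too few values above 0 to be tested. Without scaling 226 of 2915 probes were lower and 2154 higher, against 960 lower and 918 higher after quantile normalisation. With the straight line only 2149 probes could be tested, of which 486 were lower and 927 higher. AT4G24160 was not past the threshold with averaged sets or the set as a random block (-1.92 in each). Nor was it without water replicates 1 and 2 (-1.97), 3 and 4 (-1.78) or 5 and 6 (-1.90); leaving out a set was chosen after the values were seen. With the replicate number as a block no call among the 5 genes changed, and FATB stayed at -1.37; 2024 probes passed, against 1878. Leaving out 1 sample at a time, the log2 fold changes ran from -0.52 to -0.43 for AT1G24360, -0.33 to -0.11 for AT2G04540, -0.73 to -0.62 for AT5G16230, -1.48 to -1.25 for FATB and -2.24 to -1.32 for AT4G24160, with 3 to 4 genes lower, 0 higher and 1794 to 1845 probes past the threshold. Between 3 and 7 pairs of genes then differed, and 3 without water replicate 2, 3, 4, 5 or 6. With averaged sets 0 pairs differed, where the smallest p possible is 0.1, and 0 with the replicate block by sign-flip test. AT1G24360 minus AT5G16230 turned to -0.51 with median centring or no scaling. FATB minus AT4G24160 turned to -0.083 with 0.05 added before log2, and ran from -0.026 (without sucrose replicate 1) to 0.81 when 1 sample was left out. Signal over background is unknown, and AT4G24160 was dim in sucrose replicates 1 and 2.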

Other observations

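Probes that list several genes were not used for any gene, since their values cannot be assigned to 1 of the genes listed. Of 8 such probes that list a locus of the fatty acid and lipid genes, 6 could be tested, of which 4 were lower in sucrose medium, 1 was higher and 1 did not pass (limma, quantile normalised), beside 32.9% lower and 31.5% higher over all probes tested. Without scaling 4 of the 6 had log2 fold changes above 0, where the median of all probes was 1.09.

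Of these probes, 3 list acyl-ACP desaturases. The probe of AT5G16230, AT3G02620 and AT3G02610 had deposited intensities of 0.360 to 0.488 in sucrose medium, against 0.591 to 0.756 in water. It changed by -1.71 ± 0.10 on the quantile normalised log2 scale (SE; limma, adjusted p = 4.67e-08) and by -0.70 without scaling. The probe of AT3G02620 and AT3G02610 had 0.911 to 1.15 in sucrose medium, against 0.750 to 1.04 in water, a change of -0.45 (limma, adjusted p = 0.00309) and of 0.22 without scaling. The probe of AT5G16240 and AT3G02630 was dim, at 0.00110 to 0.0324 in sucrose medium, against 0.0331 to 0.0540 in water, a change of -3.12 (limma, adjusted p = 0.000218) and of -1.50 without scaling. The probe that names AT5G16230 alone was at 0.63 without scaling, so these probes went both ways on the deposited scale; differences between them were not tested.

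The probe that was higher lists AT4G13050 and AT3G25110, the acyl-ACP thioesterases of the A type, which prefer unsaturated chains. It had deposited intensities of 0.722 to 0.914 in sucrose medium, against 0.153 to 0.261 in water, a change of 0.86 ± 0.13 after quantile normalisation (SE; limma, adjusted p = 8.42e-05) and of 2.01 without scaling. FATB, the B type, was lower after quantile normalisation; the difference was not tested. A probe that lists FATB together with these loci was at 0 in all 12 samples. A probe of the dehydratases AT5G10160 and AT2G22230, which act after the reductase AT1G24360 in each round, had means of 0.551 in sucrose medium and 0.379 in water. It changed by -0.61 ± 0.10 after quantile normalisation (SE; limma, adjusted p = 0.000131) and by 0.54 without scaling, and a further probe of the same loci was above 0 in 1 of 12 samples. The probe that did not pass lists AT3G57280 and AT2G38550, at -0.17 ± 0.21 (SE; limma, adjusted p = 0.512) and 1.27 without scaling.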
